A study of Homo sapiens with 8 samples.

Results

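The 7 genes described here were insulin-like growth factor 2 (IGF2), its neighbour H19, the receptors IGF1R and IGF2R, and the RNA-binding proteins IGF2BP1, IGF2BP2 and IGF2BP3. They were taken by name from a table of 56303 genes, and all 7 were in it. The genes were selected on earlier results of these same libraries, namely their input levels, their IP over input and the differences between the arms, so their values are given as a description that no test supports. Where the calls of the fit over all genes are counted for them, the share of all genes called stands beside the count. The libraries came from MeRIP-seq of SK-N-BE(2), a human neuroblastoma line with amplified MYCN. One arm expressed the negative control shRNA (sh-NC) and the other an shRNA that targets METTL14 (shMETTL14), a subunit of the enzyme that writes N6-methyladenosine (m6A) on messenger RNA. Both arms had been infected with pLKO.1 lentivirus and selected with puromycin. There were 2 cultures per arm, and each culture gave 1 input and 1 IP library, 8 libraries in all. The labels do not say whether the shMETTL14 cultures 1 and 2 carried the same shRNA, nor whether the cultures were separate infections, so the spread given below may be technical.

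In MeRIP-seq, poly(A) RNA is fragmented, a small part is kept as input and the rest is precipitated by an anti-m6A antibody (IP). Input levels are given as CPM (counts divided by the TMM-adjusted library size) and, where genes are compared with each other, as RPKM (CPM per kilobase of the gene's merged exons). IP over input divides the IP CPM of a culture by its input CPM. It sets a gene against the other genes of the same libraries, so it does not give an absolute m6A level, nor would it show a loss of m6A shared by all genes. These are bulk cultures, in which fewer cells with an RNA and less of it per cell cannot be told apart.

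IGF2 is a secreted growth factor of fetal tissues and of many childhood tumours. It signals through IGF1R, a tyrosine kinase receptor that feeds the PI3K/AKT and RAS pathways, whereas IGF2R, the cation-independent mannose 6-phosphate receptor, takes IGF2 up for degradation and carries lysosomal enzymes. IGF2 and H19 are imprinted neighbours on chromosome 11p15 that share enhancers, and H19 is a long noncoding RNA from which miR-675 is cut. The IGF2BP proteins bind mRNA, IGF2 mRNA among them, and have been described as m6A readers that stabilise their targets.

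The sequences below show what can be read from the reference at 3 of these loci. The first pair is shown because H19 reads also cover the source of a microRNA. RefSeq places both mature arms of miR-675 inside an exon of H19, miR-675-5p at chr11:1996800-1996822 and miR-675-3p at chr11:1996768-1996787 on the minus strand of GRCh38.p14. The seed, bases 2 to 8, is in capitals. The arms have different seeds.
miR-675-5p: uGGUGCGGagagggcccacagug
miR-675-3p: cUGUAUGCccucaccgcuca

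The second set holds the 250 bases before the RefSeq start of the most abundant gene, H19, and of a receptor and a binding protein whose windows hold the E-box CACGTG, the motif bound by MYC family proteins, MYCN among them. The windows are chr11:2001267-2001516 (minus strand) for H19, chr6:159968832-159969081 (plus strand) for IGF2R and chr7:23470492-23470741 (minus strand) for IGF2BP3, all in GRCh38.p14. The H19 gene as counted here reaches chr11:2001470, so most of the H19 window lies within the counted gene. CACGTG is in capitals and reads the same on both strands.
H19: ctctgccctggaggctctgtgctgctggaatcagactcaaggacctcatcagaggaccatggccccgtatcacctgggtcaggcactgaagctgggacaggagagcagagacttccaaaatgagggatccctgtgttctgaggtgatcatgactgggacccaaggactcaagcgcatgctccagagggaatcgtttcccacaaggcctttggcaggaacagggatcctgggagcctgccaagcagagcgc
IGF2R: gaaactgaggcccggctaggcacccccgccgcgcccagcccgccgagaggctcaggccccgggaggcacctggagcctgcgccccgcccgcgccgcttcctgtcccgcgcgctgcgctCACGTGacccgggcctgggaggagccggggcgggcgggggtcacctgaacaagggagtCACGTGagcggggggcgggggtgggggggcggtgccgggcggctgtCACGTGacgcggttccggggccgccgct
IGF2BP3: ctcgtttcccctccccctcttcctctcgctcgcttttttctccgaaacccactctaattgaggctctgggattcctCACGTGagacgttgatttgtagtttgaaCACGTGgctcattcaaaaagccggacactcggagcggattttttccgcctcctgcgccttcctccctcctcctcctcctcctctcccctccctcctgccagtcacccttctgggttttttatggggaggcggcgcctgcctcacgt

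RefSeq gave a window for 5 of the 7 genes. That of IGF2R held 3 copies of CACGTG and that of IGF2BP3 held 2, while those of H19, IGF1R and IGF2BP2 held 0. Of all 35116 windows of this length, 6.34% held at least 1 copy and 28 windows (0.0797%) held 3 or more. The IGF2R window had a GC content of 79.2% and that of H19 had 58.0%, against a median of 58.0% over all windows. A match describes the letters of the window and not binding.

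The libraries were first checked against their labels. METTL14 had 49.54 and 48.76 CPM in the sh-NC inputs against 13.68 and 14.65 CPM in the shMETTL14 inputs, a log2 difference of -1.79 (SE 0.0663). All 9 adrenergic neuroblastoma markers had at least 1 CPM in the inputs of both arms, and the 3 immune, 3 endothelial, 3 epithelial and 4 Schwann cell markers summed to at most 20.2 CPM per list. The 4 fibroblast markers summed to between 193 and 233 CPM. Within them COL1A1 was lower (82.3 and 88.5 against 54.9 and 52.1 CPM) and DCN higher (16.7 and 15.7 against 41.1 and 39.8 CPM) in shMETTL14, and their part in the results below was not tested. Total counts ran from 32027379 to 47205265 per library.

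The order of the 7 genes by input RPKM was the same in both arms. H19 stood first, followed by IGF2, IGF2R, IGF1R, IGF2BP3, IGF2BP2 and IGF2BP1, and no neighbours in this order overlapped within an arm. Averaged over the 4 inputs, H19 had 427 RPKM, with 69 of the tested genes above it, and IGF2 had 71.2 RPKM, with 569 above it. IGF2R, IGF1R and IGF2BP3 lay at 27.0, 19.9 and 9.51 RPKM. IGF2BP2 had 0.285 RPKM and IGF2BP1 0.0159 RPKM.

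**Figure D1:**
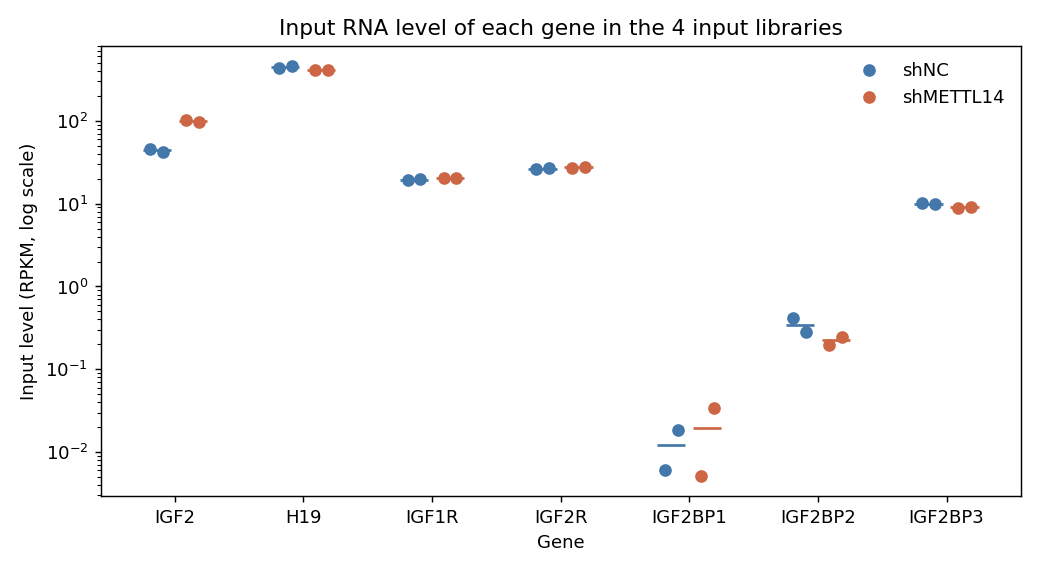
Input level in RPKM (log axis) of the 7 genes, with a point for each of the 2 sh-NC (blue) and 2 shMETTL14 (orange) cultures and a line at their mean. IGF2 had means of 44.0 and 98.5 RPKM while H19 had at least 411.4 RPKM, and IGF2BP1 had at most 0.0342 RPKM in the 4 inputs.

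IGF2, the ligand, stood out among the 7 in the inputs. It had 287.3 and 263.5 CPM in the sh-NC inputs against 633.4 and 599.4 CPM in the shMETTL14 inputs. Both shMETTL14 cultures thus lay above both sh-NC cultures, with means of 616 ± 24.0 against 275 ± 16.8 CPM (SD, n = 2 each). The fitted log2 difference was 1.17 (SE 0.0386), or 2.25-fold, a value that 99.0% of the 22245 genes tested lay below. Leaving out any 1 culture moved it between 1.11 and 1.23. The raw counts behind it were 10270 and 9504 in sh-NC against 26850 and 25050 in shMETTL14, so counting error is small beside the spread between cultures.

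The IP libraries showed IGF2 at 427.2 and 458.2 CPM in sh-NC against 893.6 and 885.0 CPM in shMETTL14, a 2.01-fold difference (log2 1.01, SE 0.0411). Of the 6 genes that passed the filter on low counts, IGF2 was the only one with an IP over input above 1 in all 4 cultures. Its IP over input was 1.49 and 1.74 in sh-NC against 1.41 and 1.48 in shMETTL14. The means were 1.61 ± 0.178 and 1.44 ± 0.0465 (SD, n = 2 each), and both shMETTL14 values lay below both sh-NC values, the nearest pair almost level. On the log2 scale IP over input was 0.68 (SE 0.0402) in sh-NC and 0.53 (SE 0.0391) in shMETTL14, values that 85.1% and 79.2% of genes lay below. The change between the arms was -0.16 (SE 0.0559). It was -0.29 without sh-NC culture 1 and -0.04 without sh-NC culture 2.

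Part of the IGF2 reads cannot be assigned to IGF2 alone. The gene lies at chr11:2129112-2141238 on the minus strand of GRCh38, with 6259 exonic bases in 7 merged exons. Of these, 998 bases are shared on the same strand with INS-IGF2, a readthrough gene, 373 with AC132217.4, which lies wholly inside IGF2 exons, and 91 on the opposite strand with IGF2-AS. The counts of these 3 genes were at most 3.68%, 0.852% and 0.253% of those of IGF2 in any library. INS, the insulin gene, did not pass the filter on low counts.

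H19, the noncoding neighbour, differed little between the arms. It had 1214 and 1285 CPM in the sh-NC inputs against 1168 and 1162 CPM in the shMETTL14 inputs. Both shMETTL14 values were below both sh-NC values, with a log2 difference of -0.09 (SE 0.0307). Leaving out any 1 culture moved it between -0.14 and -0.05. The ratio of H19 to IGF2 per length was 9.36 and 10.8 in the sh-NC inputs against 4.08 and 4.30 in the shMETTL14 inputs.

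H19 had the lowest fitted IP over input of the 6 genes in both arms. The ratio was 0.718 and 0.695 in the sh-NC cultures against 0.671 and 0.690 in the shMETTL14 cultures, below 1 in all 4. The fitted log2 values were -0.50 (SE 0.0351) and -0.56 (SE 0.0352), and 25.1% and 22.5% of genes lay below them. The change between the arms was -0.05 (SE 0.0496). IGF2 and H19 were therefore at opposite ends of the 5 abundant genes in IP over input, and in the IP libraries H19 exceeded IGF2 per length by ratios of 4.52 and 4.32 in sh-NC against 1.94 and 2.01 in shMETTL14. H19 lies at chr11:1995163-2001470 on the minus strand, with 2825 exonic bases. The short opposite-strand entries H19_1 and H19_2 share 71 and 69 of these and had counts of up to 10.7% and 9.39% of those of H19. Their log2 IP over input in sh-NC was -0.88 (SE 0.0495) for H19_1 and 0.06 (SE 0.0490) for H19_2, on either side of that of H19.

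IGF1R, the signalling receptor, was close to level between the arms. It had 262.1 and 265.8 CPM in the sh-NC inputs against 276.0 and 272.8 CPM in the shMETTL14 inputs, a log2 difference of 0.06 (SE 0.0337). The shMETTL14 values were both higher (fold 1.04). Its IP over input was 0.911 and 0.887 in sh-NC against 0.911 and 0.916 in shMETTL14. The log2 values were -0.15 (SE 0.0374) and -0.13 (SE 0.0372).

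IGF2R, the clearance receptor, also differed little between the arms. It had 396.4 and 396.8 CPM in the sh-NC inputs against 400.8 and 415.2 CPM in the shMETTL14 inputs, a log2 difference of 0.05 (SE 0.0325). IP over input was 0.875 and 0.861 in sh-NC against 0.886 and 0.856 in shMETTL14, so the arms overlapped. The log2 values were -0.20 in both arms (SE 0.0364 in each), and the change was 0.00398 (SE 0.0515). The ratio of IGF2R to IGF1R per length was between 1.32 and 1.38 in the 4 inputs and between 1.28 and 1.32 in the 4 IPs. IGF1R lies at chr15:98648971-98964530 with 13509 exonic bases and IGF2R at chr6:159969099-160113507 with 14911 exonic bases, both on the plus strand, and no exon of either overlapped another gene in the table.

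IGF2BP3 was by far the most abundant of the IGF2BP paralogs. It had 85.68 and 83.72 CPM in the sh-NC inputs against 76.13 and 78.08 CPM in the shMETTL14 inputs. Both shMETTL14 values were lower, with a log2 difference of -0.13 (SE 0.0441). Leaving out any 1 culture moved it between -0.15 and -0.11. IP over input was 0.866 and 0.859 in sh-NC against 0.967 and 0.883 in shMETTL14, with both shMETTL14 values above both sh-NC values. The log2 values were -0.21 (SE 0.0476) and -0.11 (SE 0.0480), and the change was 0.10 (SE 0.0676). The value in shMETTL14 was -0.18 without shMETTL14 culture 1 and -0.05 without culture 2. IGF2BP3 lies at chr7:23310209-23470467 on the minus strand, and 1521 of its 8511 exonic bases are shared with MALSU1 on the opposite strand. The counts of MALSU1 were 27.1% to 43.9% of those of IGF2BP3. MALSU1 had an input log2 difference of -0.14 (SE 0.0594) and a change of IP over input of 0.10 (SE 0.0983), close to those of IGF2BP3. Its IP over input was lower than that of IGF2BP3 (log2 -0.84 in sh-NC and -0.74 in shMETTL14). The part of shared reads in the IGF2BP3 values was not tested.

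IGF2BP2 was near the limit of what these libraries measured. Its input counts were 70 and 48 in sh-NC against 40 and 49 in shMETTL14, or 1.958 and 1.331 against 0.944 and 1.173 CPM. The shMETTL14 values were both lower, with a log2 difference of -0.63 (SE 0.291). It was -0.882 without sh-NC culture 2 and -0.325 without sh-NC culture 1. IP over input was 0.606 and 1.21 in sh-NC against 1.65 and 1.31 in shMETTL14. The sh-NC cultures lay on either side of 1, and the log2 value in sh-NC ran from -0.72 to 0.29 when 1 culture was left out. The gene lies at chr3:185643739-185825056 on the minus strand.

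IGF2BP1 gave few reads anywhere. Its counts were 2 and 6 (sh-NC) against 2 and 13 (shMETTL14) for the inputs, and 10 and 2 against 4 and 6 for the IPs. These levels, 0.0472 to 0.311 CPM, are close to the 0.0636 to 0.0937 CPM that 3 counts stand for in these libraries. The gene did not pass the filter on low counts, so no difference between the arms was tested for it. It lies at chr17:48997412-49055650 on the plus strand. Summed over the 4 inputs and taken per length, IGF2BP3 exceeded IGF2BP2 by a ratio of 33.8 (exact 95% interval 29.5 to 39.0) and IGF2BP1 by a ratio of 585 (390 to 923). IGF2BP3 made up 96.0% to 97.8% of the 3 paralogs per length in the inputs. These intervals cover counting error only.

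Across the 6 genes tested, 1 was called higher and 2 lower in the inputs of shMETTL14 (edgeR adjusted p under 0.05). Over all genes tested in that comparison 11.7% were called higher and 12.3% lower. For IP over input in sh-NC, 1 member was called higher and 4 lower, where 29.1% of all genes were higher and 29.8% lower. For IP over input in shMETTL14, 1 member was higher and 4 lower, where 28.9% of all genes were higher and 29.1% lower. For the difference of IP over input between arms, 0 members were called, where 0% of all 22953 genes were higher and 0.00436% lower. At an unadjusted p under 0.05, 1 member (IGF2) and 1456 of all genes passed that comparison, and with DESeq2 0 members passed. These comparisons are the ones from which the genes were chosen, so nothing is read from the counts. Some of the calls were also lost or gained when 1 culture was left out. Such a fit leaves 1 culture in an arm, so a call can be lost while the value hardly moves. The input calls of H19 and IGF2BP3 were each lost without shMETTL14 culture 1 (-0.10 and -0.11) or 2 (-0.10 and -0.15), that of H19 without sh-NC culture 2 (-0.05) and that of IGF2BP3 without sh-NC culture 1 (-0.11). IP over input in shMETTL14 was no longer called without shMETTL14 culture 1 or 2 for IGF1R (-0.12 and -0.13) and IGF2BP3 (-0.18 and -0.05). Calls were gained for the change in IGF2 without sh-NC culture 1 (-0.29) and for IGF2BP2 input without sh-NC culture 2 (-0.88). With no filter on low counts the input calls of H19 (-0.08) and IGF2BP3 (-0.11) were lost, and IGF2BP3 also lost its input call with DESeq2 (-0.13) and its call in shMETTL14 with no filter (-0.12), DESeq2 (-0.11) and the replicate block (-0.11).

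**Figure D2:**
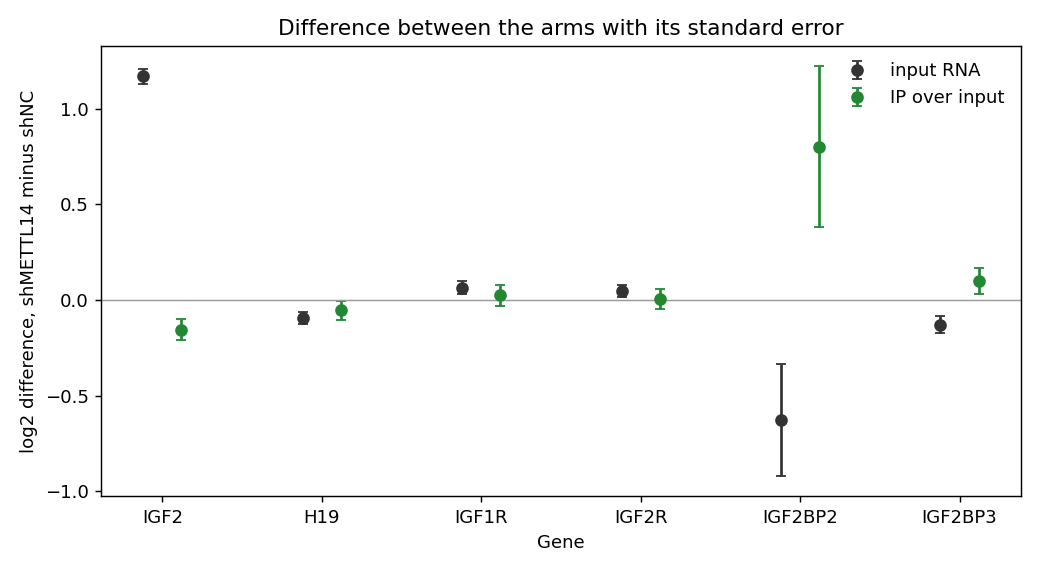
Log2 difference between shMETTL14 and sh-NC of the 6 genes tested, for input RNA (black) and for IP over input (green), with the standard error of the fit as bars. IGF2 input RNA stood at 1.17 with a short bar, the other abundant genes lay between -0.13 and 0.10 in both quantities, and IGF2BP2 had the widest bars.

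The genes around IGF2 were then examined, a step chosen after the IGF2 values had been seen. Within 500 kb on either side of the IGF2 start, 43 genes were listed and 23 tested. Of these, 4 were called higher in the shMETTL14 inputs, 1 (H19) lower, and 18 were not called, where 11.7% of all genes tested were higher and 12.3% lower. The 4 include IGF2 itself and 2 genes that share its exons, which leaves TH as the 1 neighbour called higher on reads of its own. TH, the rate-limiting enzyme of catecholamine synthesis, starts 30.6 kb upstream and had 32.6 and 35.7 CPM in sh-NC against 68.9 and 70.2 CPM in shMETTL14 (log2 1.03, SE 0.0546, edgeR adjusted p = 7.94e-13). It shares no exonic base with another gene. TH is also an adrenergic marker, and other markers of that list away from this locus were higher in both shMETTL14 cultures, namely DBH (2.38 and 2.33 against 4.46 and 3.92 CPM), CHGA (303 and 307 against 450 and 456 CPM) and ISL1 (20 and 20.2 against 29.5 and 25.2 CPM). The part of this in the TH difference was not tested. The called genes that share exons with IGF2 were INS-IGF2 (1.12, SE 0.0952) and AC132217.4 (1.11, SE 0.169). Unlike IGF2, both had a low IP over input in sh-NC (log2 -0.43, SE 0.110, for INS-IGF2 and -1.625, SE 0.257, for AC132217.4). H19 starts 139.8 kb downstream, and CTSD, a lysosomal protease gene 376.7 kb downstream, had a log2 difference of 0.04 (SE 0.0465). TH had a low IP over input in sh-NC (log2 -1.65, SE 0.0734), whereas that of IGF2 was 0.68.

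The genes whose profile over the 8 libraries was most like that of each member were found by the root mean square difference of centred log2 CPM, over 16442 genes with a mean of at least 50 counts. Nearest to IGF2 were COL6A6 (0.0552), MAP7D2 (0.0814) and MIR137HG (0.0972), where the median gene was at 0.664. COL6A6 is a collagen chain, MAP7D2 a microtubule-associated protein and MIR137HG the host of miR-137, and their input log2 differences were 1.11, 1.01 and 1.23. Nearest to H19 were GHDC, TUBA1B and ACTN4 (0.0225 to 0.0236). Nearest to IGF1R were ATP2A2, UBE2Q1 and SEC16A (0.0206 to 0.0211), and nearest to IGF2R were MAPKAP1, STRN4 and PPP3CA (0.0149 to 0.0241). Nearest to IGF2BP3 were GPR155, LRPAP1 and ACSL1 (0.0271 to 0.0298). The nearest genes to IGF2BP2, RP1-159A19.3, SYNE1-AS1 and SP100, were farther away (0.139 to 0.162).

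The pathway around the 7 genes was described from 7 lists with 127 genes. These lists were chosen with earlier results of these same data known. Their shares, set beside those of all genes, are therefore a description and no test of a list. Of the 127 genes, 126 were in the table and 116 were tested in the inputs. Of the 116, 25 rose (21.6%) and 23 fell (19.8%) in shMETTL14, where 11.7% of all genes tested were higher and 12.3% lower. The median log2 difference was 0.01, against 0.00236 over all genes tested. Leaving out a culture moved these counts. Of the 48 listed genes called, 40 remained called without sh-NC culture 1, 46 without sh-NC culture 2, 28 without shMETTL14 culture 1 and 17 without shMETTL14 culture 2. By the rule on size, 32 genes were named for their input difference, and 16 of them were called in each of these 4 fits. Values are given below for genes that stayed called in each, and the others are named as lost without a culture. A loss can come from the 1 culture left in an arm and need not mean that the cultures differ.

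Among ligands, binding proteins and proteases, 2 of 13 tested genes rose (15.4%) and 4 fell (30.8%), with a median of -0.10. Without shMETTL14 culture 2, 1 rose and 1 fell, and without culture 1, 1 rose and 2 fell. IGFBP4, a binding protein that holds IGFs back from their receptor, had 25 and 27.8 CPM in sh-NC against 40.4 and 39.3 CPM in shMETTL14 (log2 0.60, SE 0.0646, edgeR adjusted p = 1.47e-07). IGFBP3, the main carrier of IGFs in serum, had 238 and 229 CPM in sh-NC against 180 and 172 CPM in shMETTL14 (log2 -0.40, SE 0.0371, edgeR adjusted p = 1.25e-08). Both shMETTL14 cultures lay outside the sh-NC values for both genes. The calls of ADAM12, IGFBP7 and HTRA1 were lost when a shMETTL14 culture was left out. IGF1 and INS, ligands related to IGF2, and IGFBP1 did not pass the filter on low counts.

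Among insulin receptors and adaptors, 5 of 15 rose (33.3%) and 3 fell (20.0%), and 1 and 2 did without shMETTL14 culture 2 (3 and 3 without culture 1). INSRR, the insulin receptor-related receptor, had 42.7 and 40.6 CPM in sh-NC against 65.3 and 65.1 CPM in shMETTL14 (log2 0.65, SE 0.0512, edgeR adjusted p = 8.69e-10). SOS2, an exchange factor for RAS, fell (log2 -0.59, SE 0.0840, edgeR adjusted p = 8.21e-06), as did MDM2, a ubiquitin ligase that also acts on IGF1R (log2 -0.50, SE 0.0516, edgeR adjusted p = 7.25e-08). The calls of NEDD4, GRB2 and GAB1 were lost without shMETTL14 culture 2. INSR, the insulin receptor itself, had a log2 difference of -0.09 (SE 0.0671) and was not called. It is named here after its value was seen.

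PI3K and AKT signalling had 10 of 25 genes that rose (40.0%, where 11.7% of all genes were higher) and 3 that fell (12%, where 12.3% were lower), with a median of 0.13. These counts were 4 and 2 without shMETTL14 culture 1 and 3 and 1 without culture 2. PIK3R3, a regulatory subunit of PI3K, had 57.3 and 54.6 CPM in sh-NC against 106 and 109 CPM in shMETTL14 (log2 0.95, SE 0.0457, edgeR adjusted p = 1.58e-13). PIK3R2, another such subunit, rose by less (log2 0.42, SE 0.0364, edgeR adjusted p = 4.97e-09). The calls of TSC1, FOXO3 and PIK3R1 were lost when a shMETTL14 culture was left out.

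The mannose 6-phosphate receptor pathway, which IGF2R serves, had 2 of 16 genes that rose (12.5%) and 1 that fell (6.25%), and 0 and 1 without shMETTL14 culture 2 (1 and 1 without culture 1). The calls of GGA1 and GAA were lost when a culture was left out. In IP over input in sh-NC, 5 genes of this list were higher (31.2%) and 11 lower (68.8%), where 29.1% of all genes were higher and 29.8% lower. The list had a median of -0.53, against -0.01 over all genes tested. CTSD, a lysosomal protease, was the lowest with enough counts (-1.10, SE 0.0549), and CTSL, another cathepsin, was the highest (0.46, SE 0.0448). In shMETTL14, 2 were higher (12.5%) and 10 lower (62.5%), with a median of -0.33, where 28.9% of all genes were higher and 29.1% lower. The corresponding values of IGF2R were -0.20 in each arm.

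Among 11p15 and other imprinted genes, 4 of 17 rose and 4 fell (23.5% each), and 3 and 1 did without shMETTL14 culture 2 (3 and 2 without culture 1). Apart from INS-IGF2 and TH, MEG3, a noncoding RNA of the imprinted 14q32 cluster, had 165 and 165 CPM in sh-NC against 263 and 258 CPM in shMETTL14 (log2 0.66, SE 0.0353, edgeR adjusted p = 8.76e-13). PEG10, a paternally expressed gene, fell (log2 -0.38, SE 0.0368, edgeR adjusted p = 2.78e-08). The calls of PHLDA2 and DLK1 were lost without shMETTL14 culture 2. CTCF, the insulator protein that separates IGF2 from the enhancers near H19 on one parental allele, had a high IP over input in sh-NC (log2 0.71, SE 0.0418), and DLK1 had a low one (-1.78, SE 0.0593).

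The list of mRNAs reported as IGF2BP targets leaves out IGF2, which these proteins also bind. IGF2 was higher in the shMETTL14 inputs (log2 1.17, SE 0.0386). Of the 17 listed targets tested, 0 rose and 7 fell (41.2%), where 12.3% of all genes tested fell. Their median log2 difference was -0.12. Without shMETTL14 culture 2, 3 fell, and without culture 1, 5 fell. BCL2, which blocks apoptosis, had 44.2 and 44.5 CPM in sh-NC against 25.2 and 28.9 CPM in shMETTL14 (log2 -0.71, SE 0.0650, edgeR adjusted p = 1.25e-08). HMGA1, an architectural chromatin protein, also fell (log2 -0.46, SE 0.0356, edgeR adjusted p = 7.7e-10). CD44, TK1, MKI67 and PDLIM7 were among the others that fell. MYCN, named after its value was seen, had a log2 difference of -0.01 (SE 0.0274) and was not called. The targets were spread widely in IP over input in sh-NC, from 1.01 (SE 0.0547) for BCL2 to -1.32 (SE 0.0468) for FSCN1, an actin-bundling protein. Of the 17, 5 were higher (29.4%) and 8 lower (47.1%), where 29.1% of all genes were higher and 29.8% lower.

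Among RNA-binding proteins that act with the IGF2BPs, 2 of 13 rose (15.4%) and 1 fell (7.69%) in the inputs. The calls of ELAVL2, DHX9 and PABPC1 were all lost without shMETTL14 culture 2, which left 0. In IP over input in sh-NC, 7 were higher (53.8%) and 4 lower (30.8%), where 29.1% of all genes were higher and 29.8% lower. MATR3, a nuclear matrix protein, and YBX1, which binds m5C-marked mRNA, were high (0.63, SE 0.0359, and 0.54, SE 0.0363), while ELAVL1, an AU-rich element binding protein, was low (-0.64, SE 0.0513).

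Over all 7 lists, IP over input was higher for 40 genes and lower for 43 of 117 tested in sh-NC, and higher for 37 and lower for 45 in shMETTL14. Of all genes, 29.1% were higher and 29.8% lower for sh-NC, with 28.9% and 29.1% for shMETTL14. The balance depends on the scaling, and with no TMM factors 29 genes were higher against 59 lower for sh-NC, and 25 against 58 for shMETTL14. The difference in IP over input from arm to arm passed the test in edgeR for 0 of 117 listed genes, and in DESeq2 also for 0. At an unadjusted p under 0.05, 5 genes were higher and 3 lower. With sh-NC culture 1 left out, 2 listed genes, IGFBP5 (-0.23) and YBX1 (-0.18), were called lower.

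**Figure D3:**
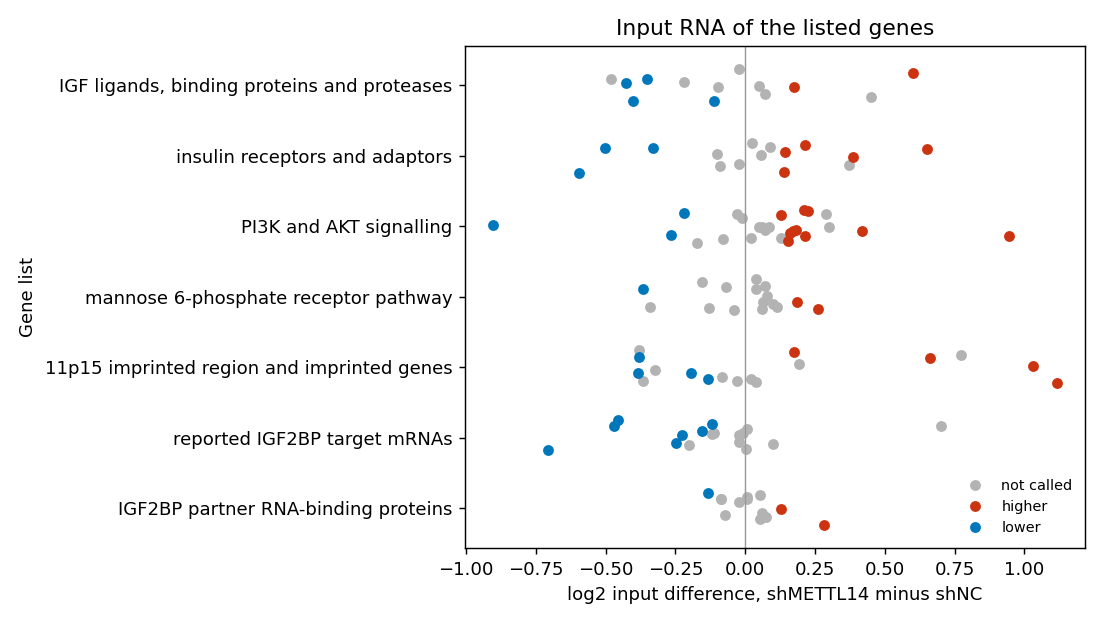
Log2 input difference between shMETTL14 and sh-NC of the 116 listed genes tested, 1 point per gene and 1 row per list, with red for genes called higher, blue for genes called lower and grey for genes not called. The listed IGF2BP targets, which leave out IGF2, have 7 blue and 0 red points. PI3K and AKT signalling has 10 red and 3 blue points. Vertical scatter within a row has no meaning.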

How the data were processed

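Raw counts of reads per gene were deposited by the authors for 8 libraries in 1 table, with merged exons and gene lengths. Per the labels, libraries were stranded and carried unique molecular identifiers, and the submitters' processing notes name Trimmomatic 0.36 and GRCh38. The aligner, the counter, its strand setting and the use of identifiers are not given in the sources used here. If reads were counted without strand, those of overlapping genes cannot be told apart, and duplicates left in would make counts non-independent molecules. The tests were run in edgeR 4.0.16 under R 4.3.3 (filterByExpr, TMM factors, quasi-likelihood test, Benjamini-Hochberg adjustment over all genes tested, adjusted p under 0.05). The input comparison used 4 libraries and 22245 genes. IP over input and its change used 8 libraries, 4 group means and 22953 genes. Standard errors are the absolute log2 value divided by the square root of F. IGF2BP1 was left out by the filter.

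Groups came from the sample titles. The members and the gene lists were chosen with earlier results of these data known. Named genes were, per list, up to 3 with the largest rise and fall of input RNA and up to 2 with the highest and lowest IP over input in sh-NC, among called genes averaging at least 50 input counts, and the 3 nearest profiles of each member. One listed gene was matched by an older symbol, some listed genes are counted but not reported by name here, and 28 row names that a spreadsheet had turned into dates were kept apart by row. The alternatives tried were RLE factors, DESeq2 1.42.0, library size only, other filters on low counts, genes with no exon overlap, the replicate block, all 8 libraries for the inputs, the IP libraries alone, and each culture left out, where the lone culture was assumed to vary like the others. The protocol pairs each IP with the input split from the same RNA. Deviations of paired libraries from their group means had a correlation of 0.00279 (sh-NC) and -0.00235 (shMETTL14) over 22953 genes. Replicate libraries differed by more than sampling noise in all 4 groups (chi-square per gene of 2.44 to 4.01). Totals of 32027379 to 47205265 counts per library make counting error small for all members but IGF2BP1 and IGF2BP2. The fits were also run on simulated counts with planted changes larger than most of the members' differences, which leaves smaller differences unassessed. Sequences and coordinates of windows are from RefSeq, GRCh38.p14.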

Additional observations from a re-analysis of the deposited data

How the results depend on the processing

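Under another scaling, filter, test or the replicate block, the change of IP over input of IGF2R, close to 0, ran from -0.00738 to 0.0127, and no other fitted value of a member changed sign. With 1 culture left out, that of IGF2R (-0.0230 to 0.0279) and IP over input of IGF2BP2 in sh-NC (-0.715 to 0.288) did. Of the members' and METTL14's values under the alternatives, 273 moved by less than the spread between replicates and 37 by more. IGF2 stood between 1.16 and 1.18 in the inputs over 7 alternatives and was called in all of them. Scaling by library size only shifted the median IP over input of all genes by -0.14 in sh-NC and -0.13 in shMETTL14, and the members moved with it. Of the listed genes, 29 were then higher and 59 lower in sh-NC, and 25 and 58 in shMETTL14. Of the listed genes, 25 were higher and 23 lower in the inputs. These counts were 15 and 12 with no filter beyond 1 read, and 11 and 18 among genes with no exon overlap. Without 1 culture, 8 to 26 were higher and 9 to 24 lower, the lowest of both without shMETTL14 replicate 2, and 12 were higher without shMETTL14 replicate 1. For IP over input in sh-NC, genes with no exon overlap gave 21 higher and 25 lower (36 to 38 and 38 to 42 without 1 culture). In shMETTL14 they gave 21 higher and 27 lower (28 to 39 and 37 to 46 without 1 culture). That setting tests fewer genes. For the change of IP over input, the IP libraries alone, which do not subtract the input difference, gave 25 higher and 22 lower, and leaving out 1 culture gave 0 higher and 0 to 2 lower, the 2 without sh-NC replicate 1. In the paired analysis, with the replicate block on the arms' shared numbers, 27 listed genes were higher and 23 lower in the inputs. Same-numbered inputs of the arms correlated by -0.0116 in their deviations and share only a number. With the block on the culture, IP over input gave 37 higher with 43 lower for sh-NC, 37 with 44 for shMETTL14, and the change gave 0. Counts of 70 or fewer in each library limit IGF2BP1 and IGF2BP2.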
